A study of Mus musculus with 18 samples.

Results

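The nuclear-encoded genes of the mitochondrial respiratory chain and of ATP synthase were examined in 18 RNA-sequencing libraries of immune cells from atherosclerotic arteries. Members were taken by gene symbol, as the Nduf genes of families a, b, c, s and v, the genes Sdha, Sdhb, Sdhc and Sdhd, all Uqcr genes, the numbered Cox4 to Cox8 genes of families a, b and c, and all Atp5 genes, without pseudogene symbols. This gave 82 of the 23337 genes in the count table, of which 37 belong to complex I, 4 to complex II, 8 to complex III, 16 to complex IV and 17 to complex V. The cells came from aortas and carotids of C57BL/6 mice of both sexes that were Apoe-/-, carried both the Cx3cr1GFP and the Cd11cYFP reporter and were 7 months of age, after 5 months on Western diet. All 4 groups share the Apoe deficiency, the diet, the age and both reporter alleles, and are defined by how the live CD45+ cells were sorted. The labels do not give the sex behind each library. GFP libraries (n = 6) hold cells with the Cx3cr1 reporter alone, DP libraries (n = 4) cells with both reporters, YFP libraries (n = 5) cells with the Cd11c reporter alone, and DN libraries (n = 3) cells with neither. GFP reports Cx3cr1, a chemokine receptor found on monocytes and on part of the macrophages, YFP reports Cd11c, an integrin subunit encoded by Itgax, and neither marks a single cell type. The labels do not say whether libraries of a group came from separate animals, so the p-values below measure only the spread between these libraries.

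The respiratory chain sits in the inner mitochondrial membrane and passes electrons from NADH (complex I) and succinate (complex II) through complex III to complex IV, which reduces oxygen. Complexes I, III and IV pump protons, and complex V, the ATP synthase, uses the gradient to make ATP. In macrophages the chain is known both as the ATP source of resting and alternatively activated cells and as a source of reactive oxygen species, and succinate oxidation by complex II is one of the points at which inflammatory stimuli alter it. Some membrane subunits of complexes I, III, IV and V are encoded by mitochondrial DNA. No row of the table carried the name of such a gene, so these subunits were not analysed here. The nuclear genes Cox4i1, Ndufab1 and Cyc1 also encode subunits but fall outside the symbol rule, and their values are given further on with related genes.

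Total counts ranged from 289166 in YFP replicate 6 to 27742113, with 9790946 as the second lowest, and 13150 to 21972 genes had counts. Replicate numbers 1 and 2, which are 2 of 6 GFP, 2 of 4 DP, 1 of 5 YFP and 1 of 3 DN libraries, had 19245 to 21972 such genes and numbers 3 to 6 had 13150 to 18961, so that the numbers are unequally spread over the subsets. Libraries are written below as subset and replicate number, such as DP 5. Transcripts of the reporters' own genes went against some labels. Levels are CPM, counts relative to a library size that was scaled by TMM for differences in composition. Cx3cr1 was at 80.9 to 164.7 CPM in the 6 GFP libraries, but at 9.43 and 0.427 CPM in the libraries labelled DP 4 and DP 5, and at 142.3 and 133.8 CPM in the libraries labelled DN 3 and DN 6, which also held 332.1 and 297.3 CPM of Itgax. Libraries sorted without GFP also held Cx3cr1, at 104.5 CPM in YFP 6 and at 60.01 to 60.7 CPM in YFP 3 and 4 and 26.3 CPM in YFP 5. Itgax was at 107.0 to 191.2 CPM in the 6 GFP libraries, sorted without YFP, which is above DP 4 (38.6 CPM), DP 5 (47.8 CPM) and YFP 6 (89.6 CPM). Differences between subsets are given below also without libraries among these, and without DP 5 and YFP 5, which stood apart in the members, where leaving them out changes a call, a direction or the size of a result. A choice of 2 libraries made after their values were seen describes those libraries and no group of the study. In bulk RNA, fewer cells of a type and less RNA per cell cannot be told apart.

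Nearly all members were transcribed in these cells. 74 of the 82 had counts in every library, 79 passed the filter on low counts (36 of complex I, 4 of complex II, 8 of complex III, 14 of complex IV and 17 of complex V), and 73 of those 79 had a median of at least 10 CPM. The 3 members that were not tested were Ndufs5, a small accessory subunit of complex I that is listed at 0 in all 18 libraries (the annotation behind the counts is not named and may leave this gene out, so its 0 is no measure of transcription), and the complex IV genes Cox8b and Cox8c, with 21 and 23 counts in all. To compare genes, CPM were divided by transcript length in kilobases (CPM per kb). The catalytic beta subunit of ATP synthase, Atp5b, led with a median of 440 CPM per kb. Next were 4 small subunits of complexes IV and III, Cox6a1 at 219, Cox8a at 174, Uqcr11 at 162 and Cox6b1 at 153 CPM per kb, then Atp5a1, the other large subunit of the ATP synthase head, at 151, and Uqcrc1, a core protein of complex III, at 146. In all, 16 members had a median over 100 CPM per kb, among them Sdha, the flavoprotein that oxidises succinate, at 101, and Ndufb8 at 106. These lengths are those of annotated transcripts, and neighbours in this order lie closer together than libraries of a subset do.

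Where a subunit has several genes, the form known from most tissues was the abundant one. Cox6a1, Cox6b1, Cox7a2 and Cox8a were the main forms of their complex IV subunits, while Cox6a2 and Cox7a1, known as the forms of heart and skeletal muscle, had medians of 1.2 and 3.3 CPM per kb, Cox6b2, known from testis, had 1.2, and Cox8b, the muscle and brown fat form, had 0.2. Cox7a2l, which helps to join complexes III and IV into supercomplexes, had a median of 40.1 CPM per kb beside 66.8 for Cox7a2. Ndufa4, counted with complex I by its name and now known as a subunit of complex IV, had 59.6 CPM per kb, against 1.4 for Ndufa4l2, a paralog that hypoxia is known to induce. Of the 3 genes that encode the same membrane ring subunit c of ATP synthase, Atp5g3 had 110.6 CPM per kb, Atp5g2 37.99 and Atp5g1 12.96. The value of Atp5g1 is per 4715 nt of a long annotated transcript that may not be the form in these cells. The plot of isoforms shows these orders in every subset.

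**Figure D1:**
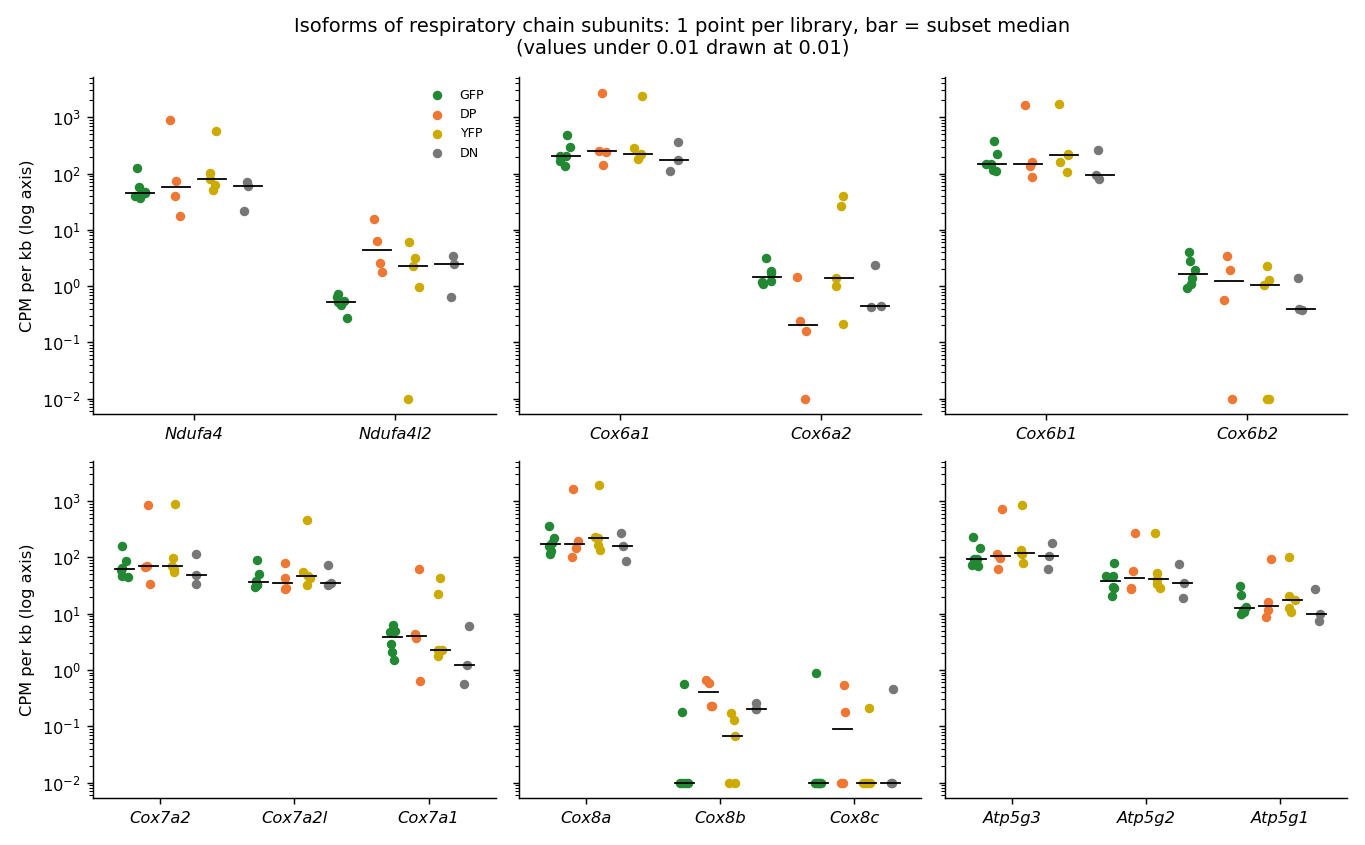
Levels of 6 isoform sets in CPM per kb of transcript on a log axis, with 1 point per library coloured by sorted subset and a bar at each subset's median. In each set the first gene of the panel lies above its paralogs in subset medians, and the highest Cox6a2 points are YFP 5 and YFP 6.

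Promoter letters are shown for 4 members as background, and matches were not tested against the levels of the genes. RefSeq windows of the GRCm38.p6 build, from 250 bases before to 50 bases after a gene's start, were found for 69 of the 82 members (75 windows). Each was searched on both strands for the cores of factors known for genes of the respiratory chain: GCGCATGCG for NRF1, CCGGAAG for the ETS family that includes GABP, AAGATGGCG for YY1, and TCAAGGTCA for the estrogen-related receptors. The NRF1 core was in 8 member windows (10.7%) and in 1.75% of all 32851 windows of that length, the ETS core in 16 (21.3%) and 8.86%, the YY1 core in 9 (12%) and 1.4%, and the estrogen-related receptor core in 2 (2.67%) and 0.423%. At least 1 of the 4 was in 29 member windows (38.7%) and in 11.7% of all windows, which include those of noncoding genes. By gene this was 11 of 32 members of complex I, 2 of 3 of complex II, 3 of 5 of complex III, 3 of 13 of complex IV and 9 of 16 of complex V. The 250 bases before the start are printed for Cox6a1, the most abundant complex IV member by mean CPM (chr5:115348959-115349208, minus strand). They are also printed for Atp5k, which had the smallest adjusted p of all members between YFP and GFP (chr5:108434400-108434649, minus strand). The others are Atp5g3, which holds the estrogen-related receptor core (chr2:73911327-73911576, minus strand), and Ndufa4, with none of the 4 cores (chr6:11907451-11907700, minus strand). Capitals mark a match. GCGCATGCGC holds the NRF1 core on both strands, CTTCCGG is the ETS core and TGACCTTGA the estrogen-related receptor core read on the other strand. Atp5k has a further CTTCCGG 12 to 18 bases after its start, past the printed stretch.
Cox6a1: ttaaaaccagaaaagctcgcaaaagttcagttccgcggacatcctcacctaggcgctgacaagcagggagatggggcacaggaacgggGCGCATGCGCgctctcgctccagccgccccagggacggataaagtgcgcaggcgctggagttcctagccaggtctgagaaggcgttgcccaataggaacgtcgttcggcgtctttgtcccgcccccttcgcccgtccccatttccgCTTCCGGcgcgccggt
Atp5k: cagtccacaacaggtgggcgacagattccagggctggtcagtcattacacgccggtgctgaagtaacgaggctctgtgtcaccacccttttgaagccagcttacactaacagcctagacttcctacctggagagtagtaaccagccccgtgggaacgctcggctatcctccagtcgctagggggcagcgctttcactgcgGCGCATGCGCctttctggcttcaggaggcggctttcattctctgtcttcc
Atp5g3: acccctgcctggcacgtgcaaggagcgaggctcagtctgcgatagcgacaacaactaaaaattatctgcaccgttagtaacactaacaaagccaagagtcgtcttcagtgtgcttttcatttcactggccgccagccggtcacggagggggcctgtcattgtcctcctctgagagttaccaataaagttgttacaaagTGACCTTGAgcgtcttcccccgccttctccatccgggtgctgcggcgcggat
Ndufa4: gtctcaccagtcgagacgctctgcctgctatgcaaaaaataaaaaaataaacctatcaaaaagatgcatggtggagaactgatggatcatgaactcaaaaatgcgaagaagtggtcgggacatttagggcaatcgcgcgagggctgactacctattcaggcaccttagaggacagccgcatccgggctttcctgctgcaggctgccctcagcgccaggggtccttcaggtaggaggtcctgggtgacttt
A match is a string of letters and no measure of binding, which was not assayed here.

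The members together took 0.393 to 0.878% of all counts in 16 of the libraries (median 0.607%) and 1.566% and 1.611% in DP 5 and YFP 5. In the 6 GFP libraries the share was lowest at 0.468%, had a median of 0.554% and was highest at 0.878%, in GFP 5. It was 0.432, 0.626, 0.619 and 1.566% in DP 1, 2, 4 and 5, then 0.568, 0.529, 0.621, 1.611 and 0.693% in YFP 1, 3, 4, 5 and 6, and 0.724, 0.393 and 0.772% in DN 1, 3 and 6. The 4 subsets overlap fully, and within DP and within YFP a single library lies above all others of its subset. Means were 0.607% ± 0.152 (SD, n = 6) in GFP, 0.811% ± 0.512 (SD, n = 4) in DP, 0.805% ± 0.455 (SD, n = 5) in YFP and 0.630% ± 0.206 (SD, n = 3) in DN. Without DP 5 and YFP 5 the DP mean was 0.559% ± 0.110 (SD, n = 3) and the YFP mean 0.603% ± 0.0711 (SD, n = 4), so that the subset means lay between 0.559 and 0.630%. The plot of shares by complex shows the tall bars of DP 5 and YFP 5.

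**Figure D2:**
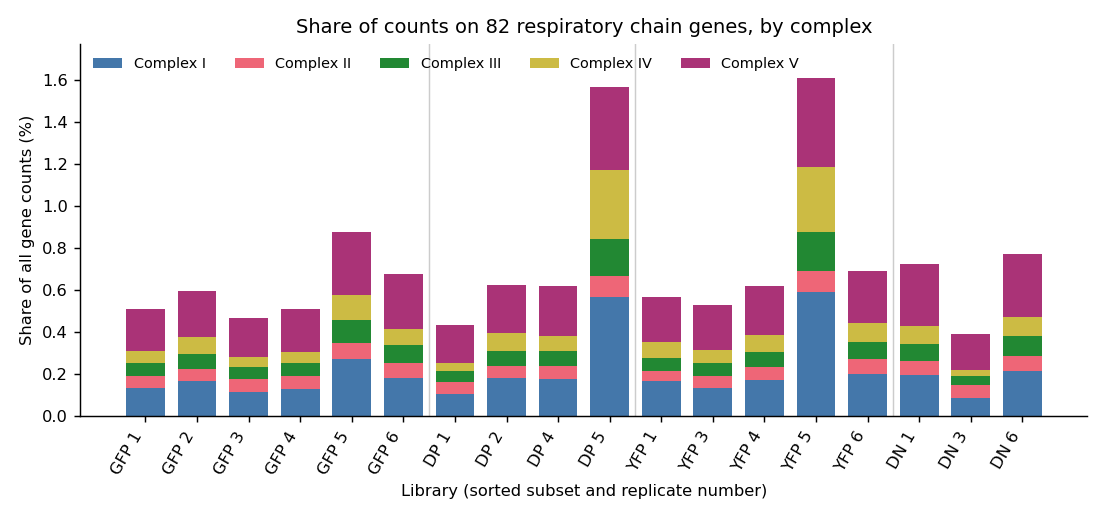
Share of all gene counts (%) on the 82 respiratory chain genes in each of the 18 libraries, stacked by complex I to V. DP 5 and YFP 5 reach 1.566 and 1.611%, and the other 16 libraries lie between 0.393 and 0.878%.

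In DP 5 and YFP 5 most subunits stood above the other libraries, but unequally by complex. Over the tested members, without Cox7b2, whose GFP median was 0, the median ratio to the median of the GFP libraries was 8.18 in DP 5 and 10.1 in YFP 5. The size of such ratios depends on the scaling. TMM factors of 0.533 in DP 5 and 0.445 in YFP 5, against 0.862 to 1.326 in GFP, raise every CPM value in these 2 libraries. The members' share of unscaled counts was 1.566 and 1.611%, against a GFP median of 0.554%. By complex the median ratio was largest for complex IV (9.09 and 11.6) and complex I (8.94 and 10.2), and smallest for complex II (4.84 and 6.06). The single highest ratios were 29.9 for the low Ndufa4l2 in DP 5 and 27.4 for the complex V member Atp5k in YFP 5. Among counts on members, complex IV made up 21.0 and 19.4% in DP 5 and YFP 5 against 8.32 to 13.9% in the other 16 libraries, and complex I made up 36.2 and 36.8% against 22.5 to 31.1%. Complex V held a smaller part there, with 25.2 and 26.3% against 34.2 to 43.4%, as did complex II, with 6.46 and 6.14% against 8.52 to 14.9%. Complex III held 11.2 and 11.4%, inside the range of the others (10.6 to 12.7%). These are ranges of single libraries and were not tested. YFP 5 was the highest of all 18 libraries for 53 members and DP 5 for 19. The heat map of members by library shows these columns.

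**Figure D3:**
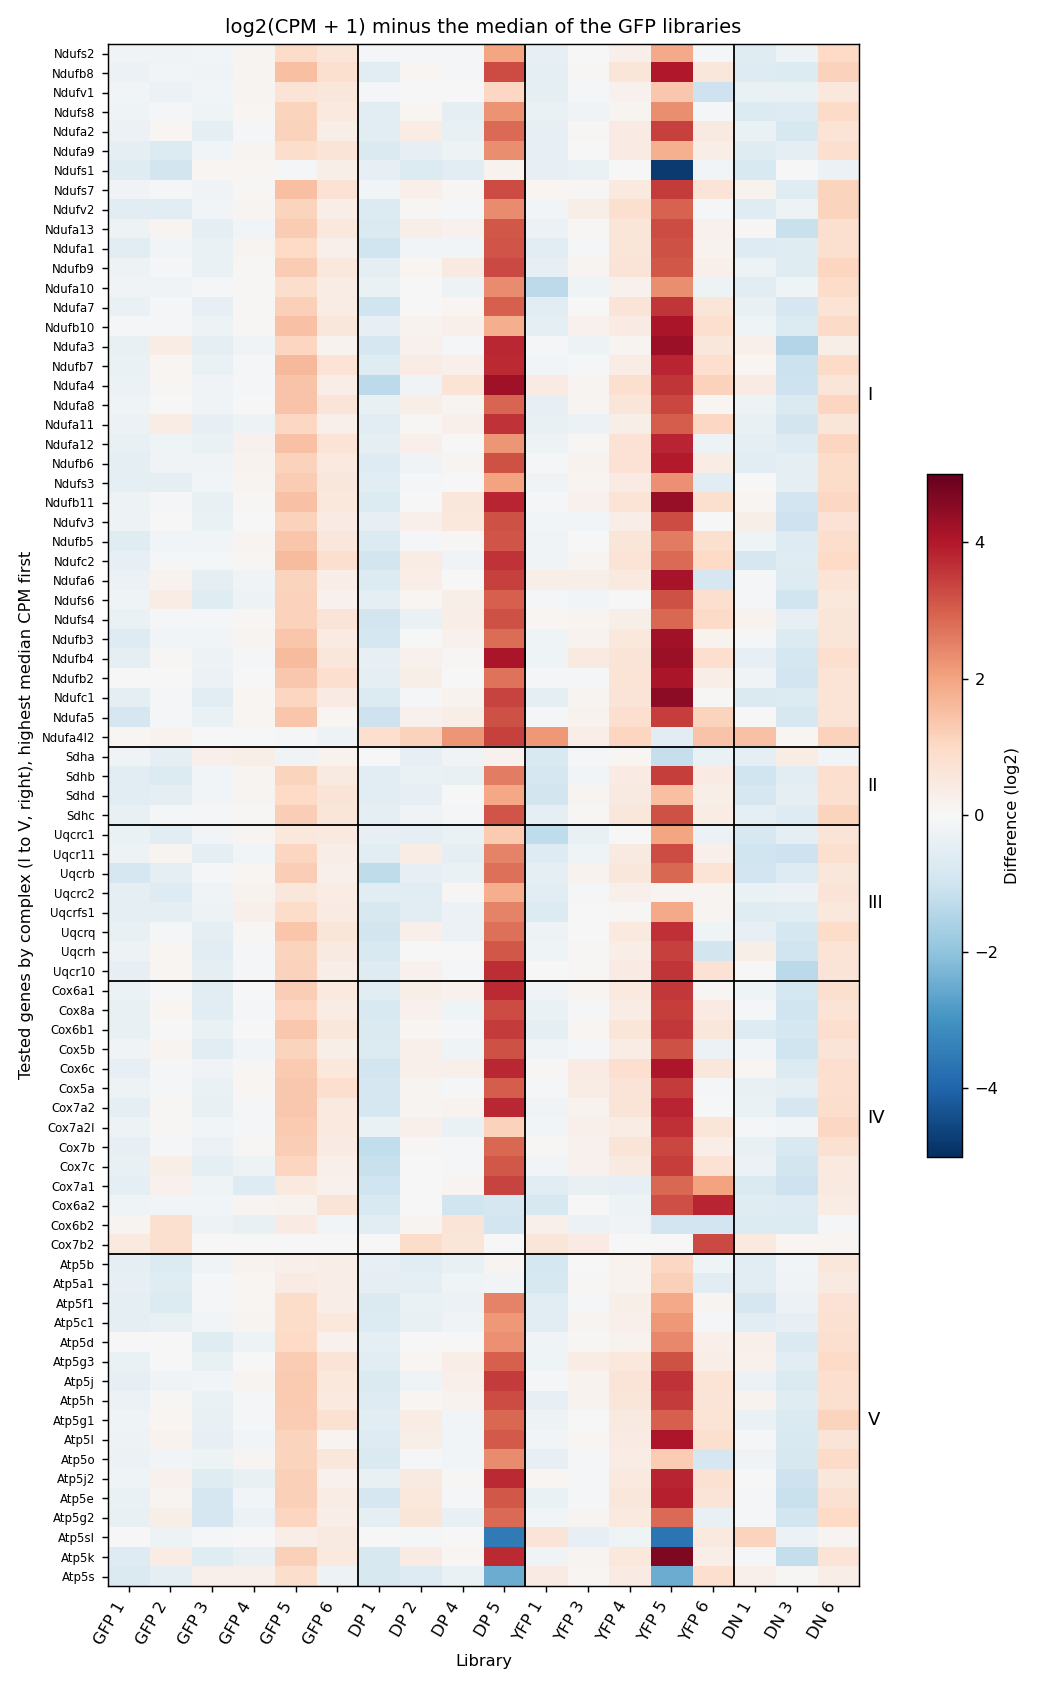
Level of each of the 79 tested genes in each library, as log2(CPM + 1) minus the median of the 6 GFP libraries, grouped by complex and ordered by median CPM. The columns DP 5 and YFP 5 are red for most rows, GFP 5 is the next highest for most rows, and Ndufs1, Atp5s and Atp5sl are blue in YFP 5.

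Both libraries lay above all other 16 for 67 of the 79 members (84.8%), against 11.8% of all 17143 tested genes. The share depended on transcript length. Among members of up to 1000 nt it was 44 of 48 (91.7%), against 42.5% of all genes of that length. Among members over 2000 nt it was 4 of 8 (Atp5g1, Ndufb2, Sdhc and Ndufa10), against 5.88%. Atp5g1 (4715 nt) and Ndufb2 (4371 nt) are listed with long annotated transcripts that may not be the forms in these cells. The 12 members that did not stand above were Atp5a1, Atp5b, Atp5s, Atp5sl, Cox6a2, Cox6b2, Cox7a2l, Cox7b2, Ndufa4l2, Ndufs1, Sdha and Uqcrc2. They include large catalytic or core subunits of complexes I, II, III and V, and 5 of the 6 tested members with a median under 10 CPM. Atp5s and Atp5sl, whose current names are Dmac2l and Dmac2 and which are not canonical ATP synthase subunits, went the other way. They were the 2 of 79 members that lay below all other 16 in both libraries, as did 2892 of all 17143 tested genes. Atp5s had 0 counts in both libraries, which allows up to 0.320 CPM in DP 5 and 0.299 CPM in YFP 5, against 2.16 to 9.25 CPM in the other 16. Atp5sl had 0.533 and 0.399 CPM, against 12.3 to 36.9 CPM.

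Genes outside the chain also stood highest in these libraries where they were short. On the log2(CPM + 1) scale relative to the GFP median, members of up to 600 nt had a median difference of 3.10 in DP 5 and other genes of that length 2.93, and at over 600 to 1000 nt the values were 3.25 and 2.68. In YFP 5 they were 3.46 and 3.27, then 3.51 and 2.78. At over 1000 to 2000 nt members stood at 2.33 and other genes at 1.28 in DP 5, and at 2.30 and 1.36 in YFP 5. At over 2000 to 4000 nt, with 6 members, the values were 0.20 and -1.16 in DP 5 and 0.02 and -0.96 in YFP 5. At over 4000 nt the 2 members were Atp5g1 and Ndufb2, whose annotated lengths are uncertain here. The values were 2.79 and -1.55 in DP 5 and 3.52 and -1.78 in YFP 5. In each of these classes the members lay above the other genes. The classes match length and not abundance. Other genes entered with a mean of at least 5 CPM over all 18 libraries, DP 5 and YFP 5 included, and members without that bound. The gap between members and other genes was smallest at up to 600 nt, 0.17 in DP 5 and 0.19 in YFP 5, and was 0.57 and 0.73 at over 600 to 1000 nt and 1.05 and 0.94 at over 1000 to 2000 nt. Spearman's rho of this difference with length was -0.50 across members and -0.36 across other genes in DP 5, -0.44 and -0.37 in YFP 5, and 0.54 and 0.59 in DN 3, over genes that share a library and are not replicates. Members and other genes had rho of the same sign in 11 of the 18 libraries and of opposite sign in 7, such as GFP 2 (-0.61 for members and 0.24 for other genes) and GFP 6 (0.24 and -0.50). The library GFP 5 had differences of the same direction and smaller size, 1.11 at up to 600 nt for members and 1.07 for other genes, and 1.34 and 1.09 at over 600 to 1000 nt. Among the 16 libraries other than DP 5 and YFP 5, GFP 5 was the highest for 64 of the 79 members, and DN 3 the lowest for 32 and DP 1 for 24.

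**Figure D4:**
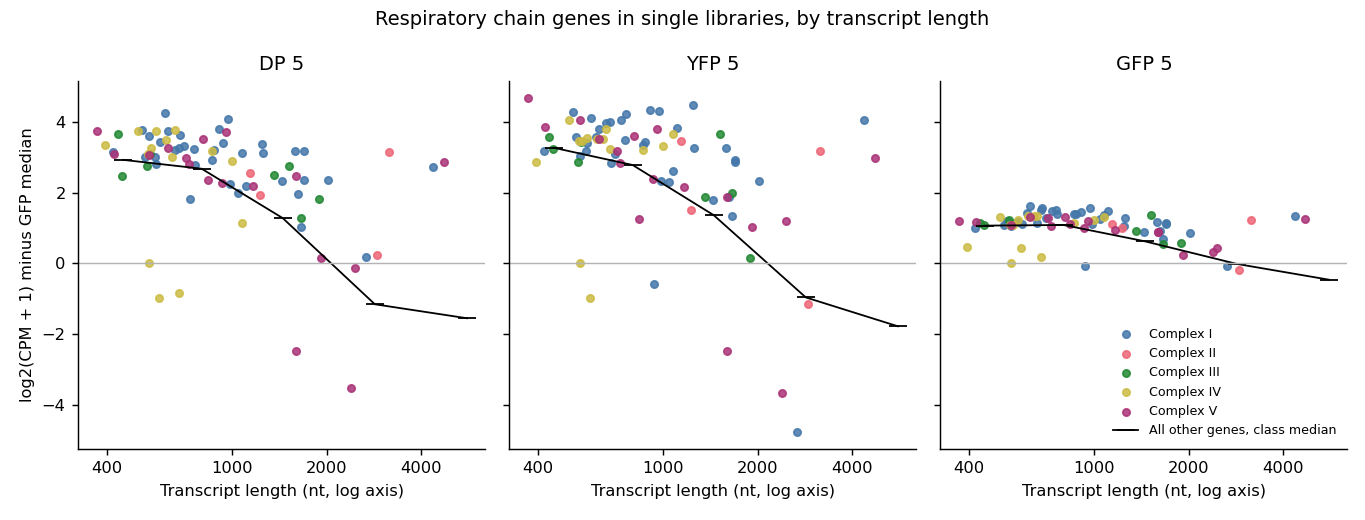
Each point is a tested respiratory chain gene, coloured by complex, with its transcript length in nt on a log axis and its log2(CPM + 1) minus the GFP median in DP 5, YFP 5 and GFP 5. The line joins the medians of all other genes by length class. Short genes lie highest in DP 5 and YFP 5, both among members and among other genes, and in DP 5 the line falls from 2.93 at up to 600 nt to -1.16 at over 2000 to 4000 nt.

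Markers of cell types also differed in these libraries, and their part in the members' levels was not tested. The 10 macrophage and monocyte markers summed to 67198 CPM in DP 5 and 118476 CPM in YFP 5, above the 1930 to 55137 CPM of the other 16. Lyz2 alone made up 37443 and 72911 CPM, while Csf1r was at 1067 and 1339 CPM, inside the 150.4 to 5148 CPM elsewhere. The 5 general leukocyte markers summed to 18469 and 15164 CPM against 2379 to 8534 CPM. Tyrobp, Fcer1g and Coro1a lay above the other 16 in both libraries, with Tyrobp at 7584 and 5764 CPM. Ptprc, which encodes CD45, was at 534.1 and 642.4 CPM, inside the 438.7 to 1248 CPM elsewhere. Laptm5 was at 1436 and 3182 CPM, inside 1013 to 4200 CPM. DP 5 also held 38564 CPM of the 7 neutrophil markers (77.4 to 2242 CPM in the other 16) and 10179 CPM of the 6 mast cell and eosinophil markers (0.953 to 289.6 CPM), with every marker of both lists at 10 CPM or more. YFP 5 did not share this, with 276 and 8.97 CPM. Of the 8 erythroid and platelet markers the sums were 4093 and 1416 CPM against 26.9 to 542.8 CPM, of which Pf4, which encodes platelet factor 4, made up 4079 and 1250 CPM. The 81 cytosolic ribosomal protein genes summed to 30373 and 49713 CPM against 3680 to 12590 CPM. Markers of tissues of the artery wall and its surroundings differed too. The 8 smooth muscle markers summed to 2860 CPM in DP 5, above the 77.4 to 2340 CPM of the other 16, and to 532.7 CPM in YFP 5. In DP 5 Acta2 at 1823 CPM and Tagln at 743.7 CPM lay above the other 16. The rest of the list lay inside their ranges there, such as Myh11 at 68.9 CPM (2.61 to 344.9 CPM) and Smtn at 51.1 CPM (12.8 to 323.2 CPM). Myocd and Des were each at 0.320 CPM in DP 5. The 9 adipocyte markers summed to 188.9 and 254.2 CPM against 60.6 to 150.1 CPM. Pnpla2 alone made up 149.8 and 253.4 CPM of these sums and was at 57.7 to 148.7 CPM elsewhere. Cidea was at 37.8 CPM in DP 5 and 0 in YFP 5, and Adipoq and Lep were at 0 in both. The 8 skeletal muscle markers summed to 0.853 CPM in DP 5, with Ckm, Myh1, Tnni2 and Mylpf at 0, and the 9 cardiac markers to 2.24 CPM. In YFP 5 the skeletal muscle list summed to 64.3 CPM, above the 3.40 to 29.9 CPM of the other 16. Ckm made up 40.8 CPM of it, Myh2 and Tnnt3 were at 0, and the cardiac list summed to 0.997 CPM. TMM factors were 0.533 and 0.445 in DP 5 and YFP 5 against 0.862 to 1.752 in the other 16.

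Complex I oxidises NADH. Its level, the mean of log2(CPM + 1) over 36 members, was 5.22 ± 0.57 (SD, n = 6) in GFP, 5.69 ± 1.55 (n = 4) in DP, 5.79 ± 1.28 (n = 5) in YFP and 5.02 ± 0.75 (n = 3) in DN, and without DP 5 and YFP 5 it was 4.94 ± 0.40 (n = 3) in DP and 5.23 ± 0.31 (n = 4) in YFP. Ndufb8, an accessory subunit of the membrane arm and the most abundant complex I member by mean CPM, was at 55.2, 68.3 and 196.3 CPM (lowest, median, highest) in GFP, at 45.6, 73.5, 63.4 and 661.7 CPM in DP 1, 2, 4 and 5, at 48.7, 70.3, 104.0, 1096 and 101.5 CPM in YFP 1, 3, 4, 5 and 6, and at 43.6, 42.3 and 151.7 CPM in DN 1, 3 and 6. The groups overlap in all but the 2 high libraries, and the log2 difference of YFP from GFP was 1.59 ± 0.77 (SE; edgeR adjusted p = 0.71). Ndufc1, a small membrane-arm subunit, had a YFP minus GFP difference of 2.31 ± 0.86 (adjusted p = 0.568), with 338.6 CPM in YFP 5 against 9.72 to 22.7 CPM in the other YFP libraries and 9.50 to 30.7 CPM in GFP.

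The 7 nuclear core subunits of complex I, which hold the flavin and iron-sulfur clusters or line the quinone site, stood above all other libraries in both DP 5 and YFP 5 for 6 of 7, as did 28 of the other 29 members of the complex. This list was drawn up after the values were seen. Their ratios to the GFP median had a median of 4.06 in DP 5 and 5.03 in YFP 5, against 9.42 and 11.6 for the other 29, and ran from 1.12 to 9.65 in DP 5 and from 0.0242 to 11.5 in YFP 5. Ndufs7, at the quinone end of the cluster chain, had the highest, with 509.3 and 604.4 CPM against 33.9 to 153.1 CPM elsewhere. Ndufv1, which binds the flavin that accepts electrons from NADH, was at 152.5 CPM in DP 5 and 187.3 CPM in YFP 5 and at 35.8 to 120.3 CPM elsewhere, and the log2 differences from GFP were 0.14 ± 0.49 for DP and 0.05 ± 0.46 for YFP. Ndufs1, the largest iron-sulfur subunit, separated the 2 high libraries from each other. It was at 87.9 CPM in DP 5, inside the 41.3 to 94.6 CPM of the other 16 libraries, and at 1.89 CPM (19 counts) in YFP 5. Over subsets Ndufs1 was at 71.2 ± 20.8 CPM (SD, n = 6) in GFP, 61.9 ± 17.9 (n = 4) in DP, 53.8 ± 29.9 (n = 5) in YFP and 62.9 ± 17.4 (n = 3) in DN.

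Ndufa4l2 (chr10:127514967-127517154, plus strand, GENCODE vM21 on mm10) was the member whose DP and GFP libraries did not overlap. It was at 0.251, 0.496 and 0.683 CPM (lowest, median, highest) in GFP, and at 1.66, 2.36, 5.82 and 14.8 CPM in DP 1, 2, 4 and 5. It was at 5.66, 0.903, 2.14, 0 and 2.99 CPM in YFP 1, 3, 4, 5 and 6, where the 0 allows up to 0.299 CPM and the last is 1 count, and at 3.15, 0.586 and 2.35 CPM in DN 1, 3 and 6. All 4 DP libraries lay above all 6 GFP libraries, and the YFP and DN libraries spread over both ranges. These levels are low, with 5 to 12 counts in each GFP library and 20, 29, 140 and 139 counts in the DP libraries. The DP minus GFP difference was 3.63 ± 0.997 (SE) in log2, with an edgeR adjusted p of 0.117. The call depended on the fit. DESeq2 (adjusted p = 0.00125) and limma voom with sample weights (0.0139) called it. So did edgeR without YFP 1 (0.0457), without YFP 5 (0.0225) or without YFP 5 and YFP 6 (0.0391). These are libraries of neither group, but they share in the scaling and in the estimate of spread. The difference was 4.143 without YFP 1 and 4.145 without YFP 5. In both fits the median of all genes was 0.48, against 0.20 with all libraries. Without DP 4, DP 5, DN 3 and DN 6 the difference was 2.23 (adjusted p = 1), and without DP 5 it was 2.87 (adjusted p = 0.647). Its paralog Ndufa4 was at 10.6, 24.7, 45.4 and 550.4 CPM in the DP libraries and at 22.4 to 76.9 CPM in GFP, a difference of 2.14 ± 0.82 (adjusted p = 0.462) with overlapping libraries.

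Complex II, succinate dehydrogenase, is encoded wholly in the nucleus. Its mean log2(CPM + 1) was 6.97 ± 0.48 (SD, n = 6) in GFP, 7.14 ± 1.14 (n = 4) in DP, 7.19 ± 0.91 (n = 5) in YFP and 6.76 ± 0.70 (n = 3) in DN, and without DP 5 and YFP 5 it was 6.57 ± 0.12 (n = 3) in DP and 6.82 ± 0.49 (n = 4) in YFP. Its catalytic flavoprotein Sdha kept to a narrow range. It was at 237.8, 328.8 and 401.1 CPM (lowest, median, highest) in GFP, at 318.7, 244.8, 288.3 and 381.6 CPM in DP 1, 2, 4 and 5, at 190.3, 304.8, 347.4, 146.7 and 256.7 CPM in YFP 1, 3, 4, 5 and 6, and at 232.2, 419.6 and 295.5 CPM in DN 1, 3 and 6. No subset stood apart, and in YFP 5, where most members were highest, Sdha was the lowest of the 18. The differences from GFP were -0.40 ± 0.38 for YFP (adjusted p = 0.977) and -0.09 ± 0.40 for DP (adjusted p = 1). Its partner Sdhb, the iron-sulfur subunit, was at 83.9, 96.6, 94.9 and 718.8 CPM in DP and at 67.5, 112.8, 164.0, 1372 and 161.2 CPM in YFP, against 76.1 to 265.8 CPM in GFP and 61.4, 82.5 and 221.4 CPM in DN. YFP 5 thus held 11.2 times the GFP median of Sdhb and 0.446 times that of Sdha. The membrane anchors Sdhc and Sdhd were at 396.5 and 401.6 CPM in DP 5 and 404.5 and 300.5 CPM in YFP 5, against 28.0 to 104.5 CPM and 54.9 to 210.3 CPM in the other libraries. No pair of subsets gave a call for any of these 4 genes.

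Complex III passes electrons from ubiquinol to cytochrome c. Its level on that scale was 6.15 ± 0.54 (SD, n = 6) in GFP, 6.43 ± 1.48 (n = 4) in DP, 6.55 ± 1.22 (n = 5) in YFP and 5.88 ± 0.77 (n = 3) in DN, and without DP 5 and YFP 5 it was 5.70 ± 0.32 (n = 3) in DP and 6.03 ± 0.34 (n = 4) in YFP. Uqcrc1 was its most abundant member by mean CPM, at 313 ± 92 CPM (SD, n = 6) in GFP, 353 ± 255 (n = 4) in DP, 416 ± 434 (n = 5) in YFP and 282 ± 161 (n = 3) in DN. Its highest values were 734.7 CPM in DP 5 and 1184 CPM in YFP 5, and the other libraries lay between 122.9 and 466.3 CPM. The Rieske iron-sulfur protein Uqcrfs1 was at 351.8 and 231.1 CPM in these libraries and at 35.3 to 117.1 CPM elsewhere. Uqcr10, a small subunit of 434 nt, was at 427.1 and 397.0 CPM against 12.3 to 73.2 CPM, and its differences from GFP were 1.77 ± 0.79 for DP (edgeR adjusted p = 0.655) and 1.57 ± 0.75 for YFP (0.706). Uqcrq, the small ubiquinone-binding protein, was at 336.8 and 629.2 CPM against 25.2 to 127.3 CPM. Uqcrc2, the other core protein, was at 247.4 CPM in DP 5 but at 77.8 CPM in YFP 5, inside the 44.9 to 109.0 CPM of the other libraries.

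Complex IV, cytochrome c oxidase, had the highest median ratio to GFP of the 5 complexes in DP 5 and YFP 5, by a small margin over complex I in DP 5. Over its 14 tested members the level was 4.47 ± 0.48 (SD, n = 6) in GFP, 4.78 ± 1.33 (n = 4) in DP, 5.13 ± 1.23 (n = 5) in YFP and 4.21 ± 0.67 (n = 3) in DN, and without DP 5 and YFP 5 it was 4.15 ± 0.49 (n = 3) in DP and 4.60 ± 0.40 (n = 4) in YFP. Cox6a1 was at 78.5, 116.9 and 276.5 CPM (lowest, median, highest) in GFP, at 80.6, 145.0, 136.5 and 1567 CPM in DP 1, 2, 4 and 5, at 103.0, 127.8, 165.4, 1367 and 122.4 CPM in YFP 1, 3, 4, 5 and 6, and at 99.7, 63.3 and 207.1 CPM in DN 1, 3 and 6. Apart from DP 5 and YFP 5 no library of DP or YFP exceeded the highest GFP library. The core-associated subunits Cox5a and Cox5b followed the same order, with 391.3 and 533.2 CPM in DP 5 and 553.0 and 545.0 CPM in YFP 5 against at most 123.0 and 128.8 CPM in the others. So did Cox6b1, Cox7a2 and Cox8a, at 1027, 565.8 and 909.8 CPM in DP 5 and at 1057, 584.9 and 1042 CPM in YFP 5. Cox7a2l, the supercomplex factor, lay above the others in YFP 5 alone (501.1 CPM), while DP 5 held 86.6 CPM, inside the 30.2 to 97.8 CPM of the other 16. Its YFP minus DP difference was 1.53 ± 0.71 (adjusted p = 0.708).

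The muscle forms of complex IV were low, and their values rested on few libraries. Cox6a2 (chr7:128205435-128206387, minus strand) was at 0.737, 1.003 and 2.11 CPM (lowest, median, highest) in GFP, at 0.166, 0.976, 0 and 0.107 CPM in DP 1, 2, 4 and 5, where the 0 allows up to 0.125 CPM, at 0.147, 0.951, 0.693, 17.6 and 26.9 CPM in YFP 1, 3, 4, 5 and 6, and at 0.301, 0.293 and 1.61 CPM in DN 1, 3 and 6. The 2 high values are 177 counts in YFP 5 and 9 counts in the shallow YFP 6, and the other YFP libraries lie within the range of the rest. YFP 5 and YFP 6 were also the libraries with the highest sums of skeletal muscle markers, 64.3 and 29.9 CPM. In YFP 5 Ckm made up 40.8 CPM of the sum, with Myh2 and Tnnt3 at 0. In YFP 6, where 3 counts are 8.96 CPM, Ckm, Myh1, Myh4 and Tnnt3 were at 0. The part of these markers in Cox6a2 was not tested. The YFP minus DP difference of 4.75 ± 1.48 had the smallest p of all members in that pair (edgeR adjusted p = 0.451), and DESeq2 called it (adjusted p = 0.0108). In edgeR it was 3.92 without YFP 5 (adjusted p = 0.313), 3.94 without YFP 6 (0.496), 0.92 without both (0.999) and 3.87 without DP 4, DP 5, DN 3 and DN 6 (0.945). Over replicate numbers 1 and 2 alone, which leaves DP 1, DP 2 and YFP 1, it turned to -1.79. Cox7a1, the other muscle form, was at 24.5 CPM in DP 5 and 17.1 CPM in YFP 5, at 8.96 CPM (3 counts) in YFP 6 and at 0.220 to 2.45 CPM elsewhere. Cox6b2 and Cox7b2 had 0 counts in both DP 5 and YFP 5 and at most 2.39 and 8.96 CPM elsewhere, the latter 3 counts in YFP 6.

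Complex V makes ATP. Its level over 17 members was 5.96 ± 0.51 (SD, n = 6) in GFP, 6.18 ± 1.09 (n = 4) in DP, 6.39 ± 0.93 (n = 5) in YFP and 5.87 ± 0.67 (n = 3) in DN, and without DP 5 and YFP 5 it was 5.65 ± 0.31 (n = 3) in DP and 5.99 ± 0.27 (n = 4) in YFP. The head subunits Atp5b and Atp5a1 were the most abundant members by mean CPM and among those closest to GFP in DP 5. Atp5b was at 906 ± 244 CPM (SD, n = 6) in GFP, 780 ± 171 (n = 4) in DP, 1040 ± 530 (n = 5) in YFP and 956 ± 382 (n = 3) in DN, and DP 5 at 1033 CPM lay inside the 511.3 to 1380 CPM of the other libraries, with YFP 5 above them at 1917 CPM. Atp5a1 was at 379.1 CPM in DP 5 and 956.4 CPM in YFP 5, against 240.3 to 579.8 CPM. The small membrane subunits differed from this. Atp5k, the subunit e of the membrane part, was at 5.50, 9.57 and 22.6 CPM (lowest, median, highest) in GFP, at 4.91, 12.5, 10.1 and 136.5 CPM in DP 1, 2, 4 and 5, at 8.13, 10.2, 13.9, 262.4 and 11.9 CPM in YFP 1, 3, 4, 5 and 6, and at 8.44, 3.45 and 15.6 CPM in DN 1, 3 and 6. YFP 5 thus held 27.4 times the GFP median, while the other 4 YFP libraries lay within the GFP range. The YFP minus GFP difference was 2.49 ± 0.92 (edgeR adjusted p = 0.565). Atp5j2, the subunit f, was at 550.6 and 579.6 CPM in DP 5 and YFP 5 and at 19.1 to 95.0 CPM elsewhere, with differences from GFP of 1.85 ± 0.79 for DP (adjusted p = 0.577) and 1.75 ± 0.75 for YFP (0.638). The 3 genes of subunit c, Atp5g1, Atp5g2 and Atp5g3, stood at like ratios in these libraries, at 7.36, 7.13 and 8.02 times the GFP median in DP 5 and at 7.96, 7.23 and 9.21 times in YFP 5.

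Each pair of subsets was then tested over all genes, and no member passed at an adjusted p of 0.05 in any of the 6. Between YFP and GFP edgeR called 0 members, as it called 0% of all 17143 genes, and 24 members had an unadjusted p under 0.05 (30.4%, against 7.02% of all genes). The median log2 difference of the members was 1.26 (73 higher and 6 lower in YFP) and that of all genes 0.04. By complex it was 1.26 for I, 0.70 for II, 1.17 for III, 1.47 for IV and 0.99 for V. The members' median was 2.035 without GFP 5, -0.02 without YFP 5, -0.11 without both DP 5 and YFP 5, with 22 higher and 57 lower. DESeq2 and limma voom also called 0 members in this pair, of 176 and 462 genes called (1.29 and 2.69% of those tested). The ranges of no member were separate in this pair, and 0.834% of all genes had separate ranges.

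Between DP and GFP edgeR called 0 members and 0.198% of all genes, and 11 members had an unadjusted p under 0.05 (13.9%, against 6.84% of all genes). The median difference was 1.15 for members (70 higher and 9 lower in DP) and 0.20 for all genes, and by complex it was 1.23, 0.63, 0.87, 1.32 and 0.99 for I to V. It was 2.06 without GFP 5, -0.16 without DP 5, -0.21 without DP 4, DP 5, DN 3 and DN 6, and -0.32 without DP 5 and YFP 5, with 3 higher and 76 lower. limma voom, which weights libraries and gave DP 5 and YFP 5 weights of 0.0655 and 0.0697 against 0.330 to 5.06 for the others, put the median at -0.24. Ndufa4l2 was the member with separate ranges (1 of 79, against 1.32% of all genes), and DESeq2 and limma voom each called it as the 1 member, beside 2.94 and 20.1% of all genes tested by each. The 8 fibroblast markers were all higher in DP than in GFP and in YFP than in GFP, with sums of 229.8 to 1030 CPM in GFP, 1216 to 11471 CPM in DP, 838.9 to 10564 CPM in YFP and 2103 to 4265 CPM in DN, and their part in the members' differences was not tested.

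The remaining pairs gave no call either. Between YFP and DP edgeR called 0 members and 0% of all genes, 2 members (Cox6a2 and Cox7a2l) had an unadjusted p under 0.05 (2.53%, against 6.73%), and the median was 0.04 for members and -0.09 for all genes. This median joins 2 high libraries, 1 in each group. It was 1.88 without DP 5 and -1.80 without YFP 5. Without both it was higher in YFP for 71 members and lower for 8. No member had separate ranges, as against 0.793% of all genes. DESeq2 called 1 member, Cox6a2, beside 0.928% of all genes it tested, and limma voom called 0 members and 0% of all genes.

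Between GFP and DN edgeR called 0 members and 0% of all genes, no member had an unadjusted p under 0.05 (1.35% of all genes did), and DESeq2 and limma voom called 0 members and 0% of all genes. The median difference was 0.18 (68 members higher and 11 lower in GFP) against 0.04 for all genes. It turned with single libraries, at -0.23 without DN 3 (7 higher and 72 lower), -0.18 without GFP 5 and 0.74 without DN 6 (75 higher and 4 lower). The median of all genes in these fits was -0.23, -0.09 and -0.03, so that without DN 3 the members moved as all genes did. Without DP 4, DP 5, DN 3 and DN 6, which leaves DN 1 as the 1 DN library and assumes that it varies like the others, the median was -0.01 for members and -0.71 for all genes. Blocking on the replicate number, which pairs these groups by the check used, put the members' median at -0.22, again with 0 calls. In that fit 13 members were higher and 66 lower in GFP, the reverse of the unpaired fit, and the median of all genes was -0.01. No member had separate ranges, against 1.48% of all genes. Between YFP and DN edgeR called 0 members and 0% of all genes, 9 members had an unadjusted p under 0.05 (11.4%, against 2.69%), no ranges were separate (0.951% of all genes), and the median of 1.47 was 0.03 without YFP 5. Between DP and DN it called 0 members and 0% of all genes, 3 members, Ndufa4, Ndufa11 and Atp5j2, had an unadjusted p under 0.05 (3.8%, against 2.71%), and the median of 1.31 was -0.13 without DP 5. Atp5s was the 1 member with separate ranges there (1.43% of all genes), lower in DP, at 2.16, 2.52, 3.41 and 0 CPM in DP 1, 2, 4 and 5 (0 allows up to 0.320 CPM) against 5.62, 4.84 and 5.94 CPM in DN 1, 3 and 6. The fitted difference of Atp5s was -1.42 ± 1.13, -0.97 without DP 5 and -1.53 without DP 4, DP 5, DN 3 and DN 6 (edgeR adjusted p = 1 in each). DESeq2 and limma voom called 0 members in both pairs, beside 0.0401 and 0.209% of all genes for DESeq2 and 0% for limma voom. The plot of median differences by fit shows which medians turn with the libraries used.

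**Figure D5:**
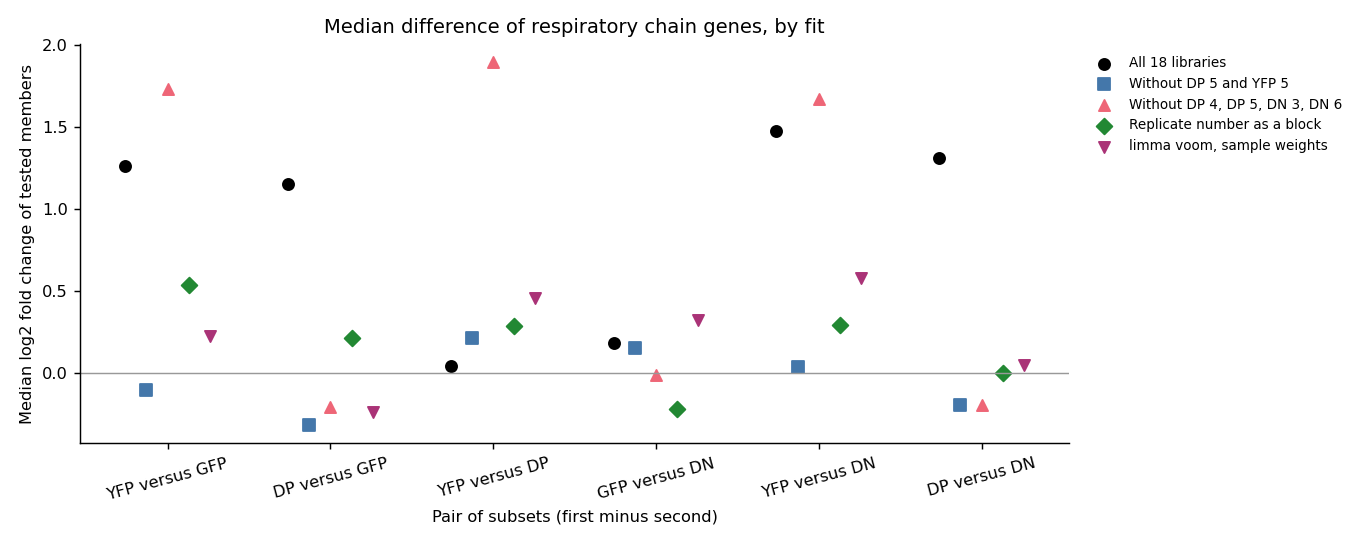
Median log2 difference of the 79 tested respiratory chain genes in the 6 pairs of subsets, with all 18 libraries and under 4 other fits. The medians of YFP and DP against GFP lie at 1.26 and 1.15 with all libraries and at -0.11 and -0.32 without DP 5 and YFP 5.

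A test of any difference among the 4 subsets called 0 members with edgeR, while it called 0.332% of all genes, and 12 members had an unadjusted p under 0.05 (15.2%, against 6.96% of all genes). The smallest adjusted p values were 0.243 for Cox6a2 and 0.365 for Ndufa4l2. The interaction of the reporters, the difference of DP from YFP minus that of GFP from DN, called 0 members and 0% of all genes, and the members with an unadjusted p under 0.05 were the same 2 genes (2.53%, against 3.3% of all genes). It was -5.40 ± 1.99 for Cox6a2 and 3.47 ± 1.45 for Ndufa4l2 (edgeR adjusted p = 1 for both). Without DP 4, DP 5, DN 3 and DN 6, whose transcripts go against the sort, it was -5.22 and 3.03 (adjusted p = 0.865 for both), and without DP 5 and YFP 5 it was -4.34 and 2.33 (1 for both). Without YFP 5 and YFP 6 that of Cox6a2 was -1.58 (adjusted p = 1). DESeq2 and limma voom were not run on these 2 tests.

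Genes that serve the chain without being members were compared in the same fits, and none of them passed in any pair. The chain genes outside the symbol rule had a median YFP minus GFP difference of 0.58 over 12 tested genes and assembly factors 0.51 over 46 (28 higher). The 18 genes of the citric acid cycle had 0.16 and the 17 regulators of mitochondrial biogenesis -0.41, beside 1.26 for the members and 1.39 for 77 cytosolic ribosomal protein genes. Between DP and GFP the medians were 0.66, -0.04, -0.07, -0.17 and 0.93 in the same order of lists, beside 1.15 for the members. These medians also rested on the high libraries. Without DP 5 and YFP 5 they were -0.20, -0.11, -0.18, -0.14 and -0.11 for YFP minus GFP, beside -0.11 for the members, and -0.37, -0.25, -0.28, 0.02 and -0.24 for DP minus GFP, beside -0.32. Cox4i1, the regulatory complex IV subunit, was at 1010 CPM in DP 5 and 1684 CPM in YFP 5 and at 85.2 to 402.5 CPM elsewhere. Ndufab1, the acyl carrier protein of complex I, was at 164.3 and 396.7 CPM against 8.96 to 61.9 CPM, and Cyc1, the cytochrome c1 of complex III, at 511.6 and 550.1 CPM against 71.5 to 194.8 CPM. Cytochrome c (Cycs) was at 702.6 and 590.3 CPM against 66.6 to 238.7 CPM. Tfam, which packages and transcribes mitochondrial DNA, was at 138.1 CPM in DP 5 and at 0.299 CPM in YFP 5, against 3.82 to 19.2 CPM in the other libraries. Irg1, whose product makes the complex II inhibitor itaconate, was at 1099 and 1861 CPM in DP 4 and DP 5, 649.2 CPM in DN 1 and 5.58 to 251.4 CPM elsewhere.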

How the data were processed

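Live CD45+ cells were sorted into Trizol and their RNA made into libraries with SMART-seq v4 and Nextera XT kits, which do not mark strand, per the labels' protocols. The submitters' processing notes name TopHat 1.4.1, HTSeq 0.7.1, SAMtools and the build mm10. The annotation and strand setting are not given in the sources used here, and reads of overlapping genes may therefore be mixed. As the authors deposited them, the values are raw read counts in 1 table of 23337 genes by 18 libraries. Reads carry no molecular identifiers, and limits for a count of 0 (3 counts) cover counting error only.

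Groups are the sorted subsets that the labels give. edgeR 4.0.16 in R 4.3.3 (filterByExpr by subset, TMM, robust quasi-likelihood fit over all 18 libraries) tested 17143 genes, with Benjamini-Hochberg adjustment over all of them and a threshold of 0.05. Standard errors come from the log2 fold change and its F statistic. Lengths and coordinates are from GENCODE vM21, which held all 82 members. Other genes in length classes had a mean of at least 5 CPM. Alternatives used DESeq2 1.42.0, limma 3.58.1 (voom with sample weights), other scaling factors and filters, each library left out, a replicate block, replicate numbers 1 and 2 or 3 to 6 alone, and sets of libraries left out. The fit was tested on simulated data.

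The members, gene lists and named genes were chosen with earlier results of these data known. Named were members called in a test, in each complex the most abundant tested member and the 2 with the widest range of subset means, and a list by role (complex II, isoform sets, core subunits). Genes named beyond these were picked after their values were seen. Same-numbered libraries of GFP and DN deviated together from their subset means (correlations of 0.693, 0.501 and 0.608), so these were taken as paired, but the labels do not say what a number marks. No libraries within a subset were near duplicates.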

Additional observations from a re-analysis of the deposited data

Results flagged for a closer look

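In 30 of 111 groups of 4 to 6 libraries, the highest or lowest library lay farther from the others than a 95% criterion for a single outlier allows. Chance flags about 1 in 20 groups, and members of a library are not independent. Some of the genes were also chosen for the widest range of subset means in these data. The number of flags can therefore not be set against that rate. Among the 30 flagged groups, DP 5 was the highest in 7, YFP 5 the highest in 21 and the lowest in 1, and GFP 5 the highest in 1. The share of counts was 1.566% in DP 5 and 1.611% in YFP 5. The mean log2(CPM + 1) of complex II was 8.84 in DP 5, and those of complexes I, III and V were 8.028, 8.67 and 8.007 in YFP 5.

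On the log2(CPM + 1) scale DP 5 stood out for Sdhb (9.492) and Sdhc (8.635), the complex III genes Uqcrc1 (9.523) and Uqcrfs1 (8.463), and Ndufv1 (7.262). YFP 5 stood out for Ndufb8 (10.1) and Ndufc1 (8.408) of complex I, Sdhc (8.663), and Uqcr10 (8.637) and Uqcrq (9.3) of complex III. In complex IV it did so for Cox5a (9.114), Cox5b (9.093), Cox6a1 (10.42), Cox6b1 (10.05), Cox7a2 (9.195), Cox7a2l (8.972) and Cox8a (10.03), and in complex V for Atp5g1 (8.887), Atp5g2 (7.663), Atp5g3 (9.243), Atp5j2 (9.181) and Atp5k (8.041). Ndufs1, the iron-sulfur subunit, went the other way in YFP 5, with 1.533. GFP 5 stood out for Ndufa4 (6.283). Cell type markers and the dependence on transcript length differ in the same libraries, as given above, and the part of the markers in these values was not tested.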

How the results depend on the processing

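Calls of members were few in every fit. DESeq2 called 1 member between DP and GFP (Ndufa4l2, log2 difference 3.961) and 1 between YFP and DP (Cox6a2, 4.903), and limma voom with sample weights called 1 between DP and GFP (Ndufa4l2, 2.232). With single libraries left out, 0 to 1 members were called between DP and GFP, the 1 being Ndufa4l2 at 4.143 without YFP 1 (1.07% of all genes called) and 4.145 without YFP 5 (1.48%), and 0 to 1 in the test of any difference, the 1 being Cox6a2 without YFP 1 (adjusted p = 0.0499, 1.51% of all genes). Without YFP 5 and YFP 6, chosen after seeing the data, 1 was called between DP and GFP (Ndufa4l2 at 3.633, 0.513% of all genes). Replicate numbers 1 and 2 alone gave 1 call between YFP and GFP (Ndufa4l2), 2 between GFP and DN (Ndufa4l2 at -2.512 and Atp5sl at -1.496) and 2 between DP and DN (Atp5sl and Ndufa4), of 79 members, where 7.83, 12.5 and 14.1% of all genes were called, so that the members' shares lay below the background. That fit has 1 YFP and 1 DN library, which are assumed to vary like the others. The interaction called 0 members in every fit run.

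Medians of the members turned with the libraries. With single libraries left out they ranged from -0.01737 (without YFP 5) to 2.035 (without GFP 5) for YFP minus GFP, from -0.1603 (without DP 5) to 2.064 (without GFP 5) for DP minus GFP, from -1.798 (without YFP 5) to 1.881 (without DP 5) for YFP minus DP, from -0.2257 (without DN 3) to 0.7401 (without DN 6) for GFP minus DN, from 0.02971 (without YFP 5) to 2.073 (without DN 6) for YFP minus DN, and from -0.1284 (without DP 5) to 1.874 (without DN 6) for DP minus DN. For GFP minus DN the median of all genes was -0.2296 without DN 3 and -0.03451 without DN 6. limma voom put the members' medians at 0.2221 for YFP minus GFP, -0.2414 for DP minus GFP and 0.04527 for DP minus DN. Numbers 1 and 2 alone gave 0.04322, 0.04456, -0.06608 and -0.07874 for YFP minus GFP, DP minus GFP, YFP minus DN and DP minus DN, and leaving out DP 5 and YFP 5, a choice made after seeing the data, gave -0.1073, -0.3206, 0.03448 and -0.1954. Without DP 4, DP 5, DN 3 and DN 6, DP minus GFP was -0.2088, YFP minus DP 1.898 and DP minus DN -0.1989, and with YFP 6 left out too they were -0.5177, 1.934 and 0.07975. Without YFP 5 and YFP 6, YFP minus GFP was -0.1553, YFP minus DP -1.27 and YFP minus DN 0.01987. With the replicate number as a block YFP minus DN was 0.2906 and DP minus DN -0.004805, the other 4 medians moved by less than the spread between libraries, and no call changed. Only GFP and DN pass the check of pairing, and correlations of same-numbered libraries were 0.266 to 0.562 for YFP with GFP at numbers 1, 3, 4 and 5 but 0.00893 at number 6, that of the shallow YFP 6, and were as low as 0.0335 for DP with GFP, 0.076 for YFP with DP and -0.0451 for YFP with DN. Apart from the fits that leave out these libraries or weight them, the cause was not tested.

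RLE scaling moved the median of all genes to 0.20 for YFP minus GFP and 0.38 for DP minus GFP, and offsets for a length trend, added after seeing the data, to 0.35 and 0.36, beside member medians of 0.89 and 0.55 under the offsets. The shares of counts by subset and, under RLE scaling, the levels by complex moved by less than 1 SD. Depth limits YFP 6, where 3 counts are 8.96 CPM, and the low isoforms.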
